A study of Drosophila melanogaster with 15 samples.

Results

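Messenger RNA of Kc167 cells depleted of DOM-A was compared with that of control cells, using the 6 libraries labelled DOM-A replicates 1 to 3 and Control (CTRL) replicates 1 to 3 of the 15 libraries in the study. Kc167 is an established embryonic cell line of Drosophila melanogaster. DOM-A cells were treated with dsRNA directed against the DOM-A isoform of the gene dom. CTRL cells received dsRNA against sequences that the fly genome lacks, GST in replicates 1 and 3 and GFP in replicate 2, and an effect of the dsRNA used cannot be told apart from one of the replicate. All samples contained added cells of a related fly, Drosophila virilis, as a spike-in, and the replicates are described as biological. The other libraries are from cells treated with dsRNA against DOM-B, TIP60 or the histone variant H2A.V, with 3 libraries each. Of the 17481 genes in the count files, 11424 had at least 1 read in 6 of the libraries and were tested. Changes are given as log2 fold-changes between normalized counts, which are read counts divided by a size factor from the Drosophila virilis reads, and a gene was called when its adjusted p-value was under 0.01.

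The gene dom encodes an ATPase of the family that exchanges and moves nucleosomes, and alternative splicing gives the isoforms DOM-A and DOM-B. DOM-A assembles with the acetyltransferase TIP60 into a complex that resembles the yeast NuA4 complex, which acetylates histone tails and acts in transcription. Kc167 cells have features of embryonic blood cells (hemocytes), which engulf dead cells and microbes, secrete basement membrane and carry the enzymes of melanization.

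Depth per library was between 8662976 and 14679536 reads on D. melanogaster genes, and D. virilis genes received between 1766397 and 3037203. Reads on dom add up all of its isoforms, with normalized counts of 4439.8, 4252 and 5175 in CTRL replicates 1 to 3 and 6072, 5382 and 5518 after DOM-A RNAi, so that they give no check of the DOM-A label. The log2 fold-change of dom was 0.30 (standard error 0.135, adjusted p = 0.105, edgeR's quasi-likelihood test). Of 10 blood cell markers, each had a mean CTRL count of at least 10, and their summed normalized count was between 41169 and 51920 in CTRL and between 111241 and 130370.1 after DOM-A RNAi. Markers of gut summed to at most 6.76 in CTRL and 26.0 after DOM-A RNAi, with betaTry and Jon99Cii at 0 in all 6 libraries. Those of muscle summed to at most 115 and 232, and those of testis to at most 46.2 and 42.3. Germline markers summed to between 2766 and 3263 in CTRL and between 1715 and 2168 after DOM-A RNAi, with 1 of 4 called higher and 2 lower, and glia markers to between 252 and 671 and between 471 and 795, with 0 of 5 called. Markers of neurons summed to between 921 and 1281 in CTRL and between 681 and 804.5 after DOM-A RNAi. In RNA from whole cultures, a change in the number of cells of a type and a change in RNA per cell cannot be told apart.

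DOM-A RNAi raised 1024 genes (8.96% of those tested) and lowered 1190 genes (10.4%). Without CTRL replicate 1, 525 rose and 694 fell, and without CTRL replicate 2, 633 and 791. Without CTRL replicate 3 the counts were 571 and 800, without DOM-A replicate 1 they were 621 and 733, and without DOM-A replicate 3 the order turned, with 819 higher and 740 lower. Size factors of the D. melanogaster counts turned it too, with 1344 higher and 1155 lower. Genes that rose changed further, with a median log2 fold-change of 1.59 among those called, against −0.84 among genes that fell. A change beyond 2-fold occurred in 700 of the 1024 and 430 of the 1190. The gap was smaller in the highest quintile of CTRL count, with 72 of 224 rising and 132 of 491 falling genes beyond 2-fold. A change beyond 4-fold occurred in 419 of the genes that rose and 79 of those that fell, and one beyond 16-fold in 94 and 4. The median normalized count in CTRL was 154 for the genes that rose, 832 for those that fell and 194 for all tested. A CTRL count under 10 was found for 24.9% of the genes that rose, 0.168% of those that fell and 30.7% of all tested, and one of 1000 or more for 22.8%, 42.9% and 20.9%. A decrease of a gene with few CTRL reads was mostly not detectable at this depth. The rising genes took 11.1% of the D. melanogaster reads in CTRL and 19.5% after DOM-A RNAi, and the falling genes 15.1% and 7.73%. In 926 of the genes called higher and 1148 of those called lower the 3 DOM-A libraries did not overlap the 3 CTRL libraries. Over all genes tested, 18.4% lay apart in the higher and 21.1% in the lower direction, and the median log2 fold-change was 0.03.

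**Figure D1:**
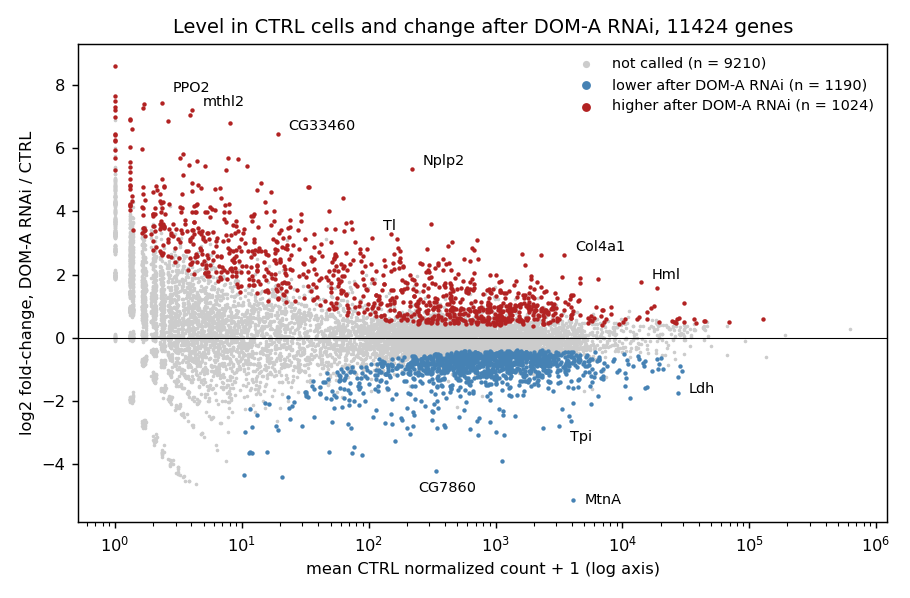
Change after DOM-A RNAi relative to CTRL, as log2 fold-change (vertical axis), plotted against the mean CTRL normalized count plus 1 (horizontal log axis) for 11424 genes, each point a gene. The 1024 genes called higher (red) reach down to counts near 0 in CTRL, while the 1190 called lower (blue) lie mainly at high CTRL counts.

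Across lists of genes by function, more members of those of blood cells, extracellular matrix and adhesion rose than fell, whereas more members of those of glycolysis, the citric acid cycle, respiration and proton transport fell than rose. The lists were assembled with earlier results of these data known, so their counts describe the response. Where edgeR called 0 genes of a list described here in a direction, at most 1 member had an unadjusted p under 0.05 there. Exceptions were the DOM complex subunits, the splicing factors with 5 of 28 higher, and the Polycomb and trithorax group with 6 of 37 higher. In some of the lists with 0 calls in a direction, DESeq2 called 1 gene in that direction. Diap2 among apoptosis genes, usp among ecdysone genes and Xbp1 among DOM complex partners were lower. Treh among genes of trehalose, glycogen and gluconeogenesis and Sf3b2 among splicing factors were higher.

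**Figure D2:**
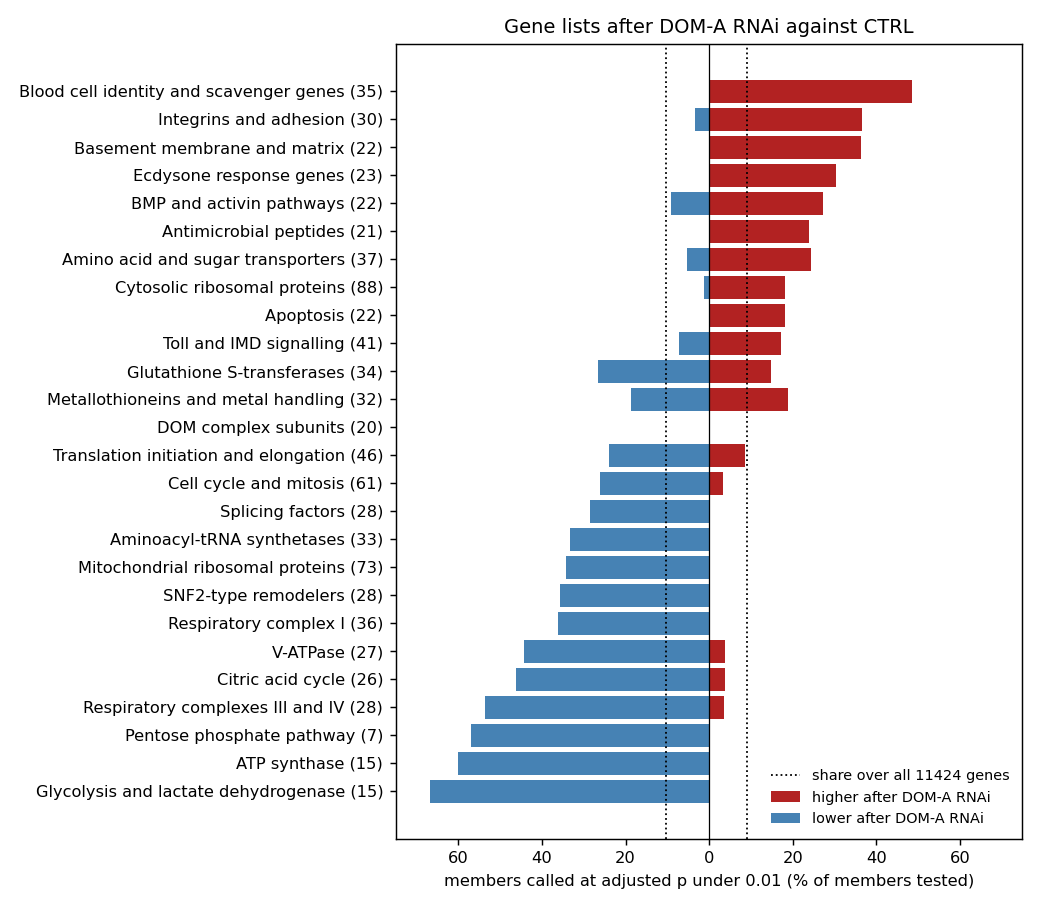
Percentage of tested members of each functional list (number tested in brackets) called higher (red, to the right) or lower (blue, to the left) after DOM-A RNAi, with the shares over all 11424 genes as dotted lines at 8.96% and 10.4%. Blood cell genes extend furthest to the right and genes of glycolysis furthest to the left, and the DOM complex subunits have no bar.

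Of the functional lists, that of blood cell genes had the largest share of members that rose. Of 35 tested genes for blood cell identity, engulfment receptors and melanization, 17 rose and 0 fell, with a median log2 fold-change of 1.73, or 1.64 when genes without reads in CTRL were set to their lower bound. Between 15 and 17 rose when 1 library was left out. Hml (FBgn0029167), which encodes the clotting protein hemolectin and marks plasmatocytes, the engulfing blood cells, was already abundant in CTRL, with normalized counts of 15545, 10266 and 16041 in replicates 1 to 3. It reached 43922, 44382 and 47085 after DOM-A RNAi. All DOM-A libraries lay above all CTRL libraries, with a 3.38-fold rise (log2 fold-change 1.75, standard error 0.264, adjusted p = 0.000238, edgeR). The phagocytosis receptor eater had counts of 164, 206 and 173 in CTRL and 871, 440.3 and 641 after DOM-A RNAi, a 3.54-fold rise without overlap (adjusted p = 0.000507, edgeR). The engulfment receptor drpr, which recognises dying cells, rose 2.06-fold (log2 fold-change 1.04, standard error 0.194, adjusted p = 0.00117, edgeR).

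A chromosomal cluster of Nimrod family genes and He rose. This family includes receptors that bind bacteria and cell debris. NimB4, NimB5, He and NimC1 are neighbours among the tested genes on chromosome 2L between positions 13968280 and 13976769 of the BDGP6 assembly, and all 4 were called higher. He, the gene of the blood cell surface protein Hemese, had counts of 194, 165 and 694 in CTRL and 1578, 655 and 2596 after DOM-A RNAi. NimC1, a plasmatocyte receptor for bacteria, had 36.1, 25.8 and 98.1 and 437, 60.6 and 565. In both genes replicate 2 was the lowest DOM-A library and lay below CTRL replicate 3, although every DOM-A library lay above the CTRL library of its own number. The secreted NimB5 rose from 73.2, 89.2 and 282 to 1713, 417 and 2149.9 without overlap, by 3.29 on the log2 scale (standard error 0.53, adjusted p = 0.000403, edgeR). NimB1, in the same family, rose by 3.69 on the log2 scale (standard error 0.511, adjusted p = 0.000127, edgeR). NimB4 rose by 4.13 and lost its call without CTRL replicate 1 (adjusted p = 0.0142) or CTRL replicate 3 (adjusted p = 0.0129). Pxn, the gene of the matrix enzyme peroxidasin, showed the same weak rise in replicate 2. Its counts were 454, 168 and 327 in CTRL and 1601, 289 and 1553 after DOM-A RNAi, with a log2 fold-change of 1.73 (adjusted p = 0.00131, edgeR), and the call was lost without CTRL replicate 3 (adjusted p = 0.0111) or DOM-A replicate 1 (adjusted p = 0.0104).

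Class C scavenger receptors, which bind bacteria, rose from low levels. Sr-CIV had counts of 18, 10.7 and 10.3 in CTRL and 613, 203 and 380.5 after DOM-A RNAi, a 29.6-fold rise (standard error of the log2 fold-change 0.497, adjusted p = 1.24e-05, edgeR). Sr-CI rose from 22.5, 18.3 and 24.3 to 244, 57.7 and 222, with replicate 2 the lowest DOM-A library. Sr-CIII was close to absent in CTRL, at 0, 1.074 and 0, and reached 58.5, 27.9 and 38.2. The C-type lectin gene lectin-28C rose 26-fold, from 5.63, 3.22 and 6.54 to 146, 103.8 and 154. In all 4 genes every DOM-A library lay above every CTRL library.

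Genes of 2 further blood cell types were nearly silent in CTRL and were read after DOM-A RNAi. PPO1 and PPO2 encode prophenoloxidases, the melanization enzymes of crystal cells. PPO2 (FBgn0033367) had counts of 0, 2.15 and 1.87 in CTRL and 240.5, 162 and 319 after DOM-A RNAi (log2 fold-change 7.43, standard error 0.533, adjusted p = 1.58e-06, edgeR), and the size of the fold rests on few CTRL reads. PPO1 had 0 reads in the CTRL libraries and counts of 14.6, 22.1 and 16.8 after DOM-A RNAi, at least 5.69-fold higher when each CTRL library is set to 3 reads. Lamellocytes are blood cells that encapsulate parasites, and their markers atilla and ItgaPS4, an integrin subunit, also rose. The counts of atilla were 2.25, 2.15 and 13.1 in CTRL and 151, 85.6 and 142 after DOM-A RNAi, and those of ItgaPS4 were 2.25, 3.22 and 7.48 and 65, 51 and 90.5, without overlap in either gene. The transcription factors that specify blood cells did not pass the test. The GATA factor gene srp had counts of 4674, 3303 and 4287 in CTRL and 5812, 3571 and 5844 after DOM-A RNAi (log2 fold-change 0.29, adjusted p = 0.0682, edgeR), its cofactor gene ush had a log2 fold-change of 0.47 (adjusted p = 0.0373), and the crystal cell factor gene lz had counts of 2.25, 0 and 3.74 and 1.62, 3.85 and 16.8. The engulfment receptor gene crq had a log2 fold-change of −0.37 (adjusted p = 0.125).

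**Figure D3:**
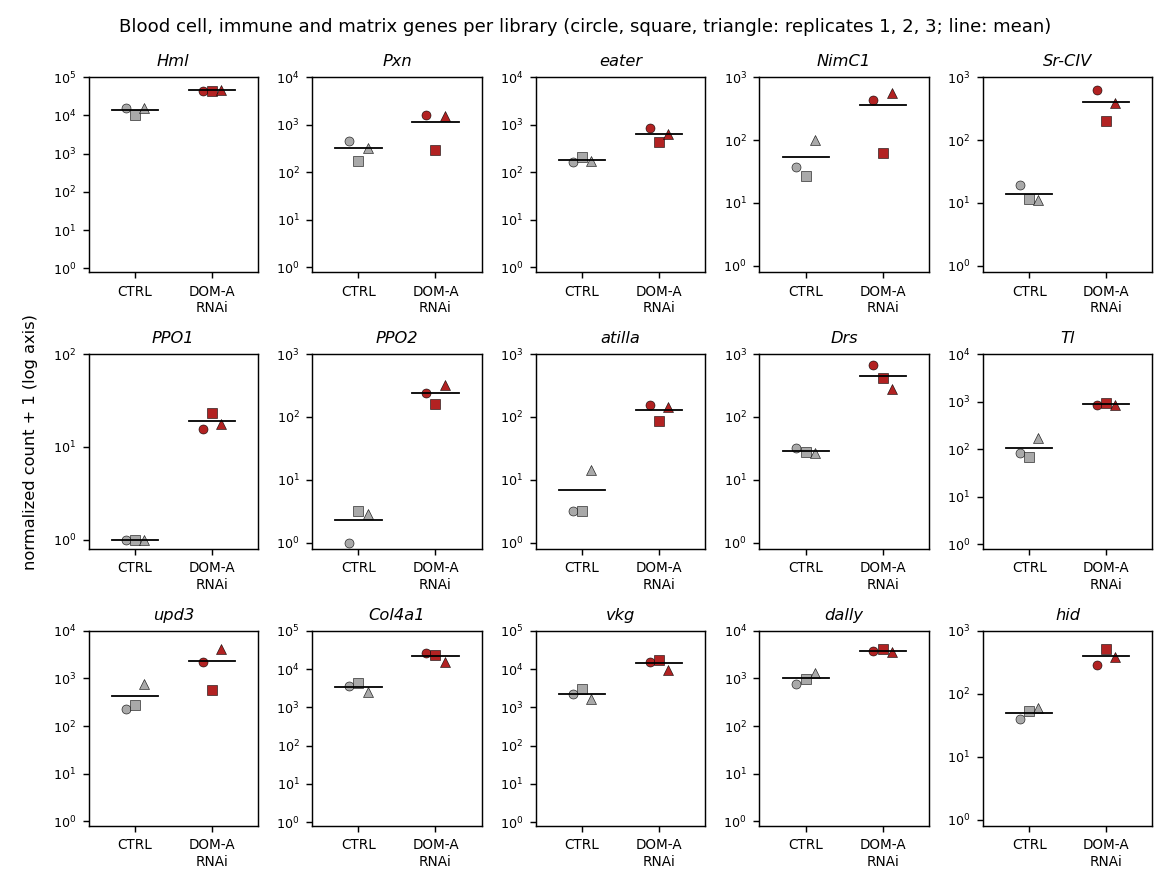
Normalized count plus 1 (vertical log axis) of blood cell, immune, matrix and apoptosis genes in CTRL (grey) and after DOM-A RNAi (red), each symbol a library (circle, square and triangle for replicates 1, 2 and 3) and each line a group mean. Hml lies between 43922 and 47085 in all DOM-A libraries, and the square of DOM-A replicate 2 is the lowest DOM-A library of Pxn, NimC1, Sr-CIV and upd3.

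Part of the inducible immune genes rose from low levels. Antimicrobial peptides are secreted against microbes when the Toll or IMD pathway is active, and 5 of 21 tested genes rose and 0 fell, with a median log2 fold-change of 2.44, or 1.17 with genes lacking CTRL reads set to their bounds. Without CTRL replicate 1, 3 rose, and without DOM-A replicate 3 the median was 1.30. Drs, the gene of the antifungal drosomycin, had counts of 31.6, 26.9 and 26.2 in CTRL and 662, 414 and 275 after DOM-A RNAi, a 15.1-fold rise without overlap (log2 fold-change 3.92, standard error 0.548, adjusted p = 0.000133, edgeR). AttD, which encodes an attacin, rose from 6.76, 9.67 and 26.2 to 53.6, 112 and 109. Cecropin genes CecA1 and CecC stayed at low counts, with CecC at 0, 1.074 and 10.3 in CTRL and 19.5, 51 and 38.2 after DOM-A RNAi. CecA1 lost its call without CTRL replicate 1 (adjusted p = 0.0106) and CecC without CTRL replicate 2 (adjusted p = 0.0133).

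Some components of the Toll pathway rose. Of 41 tested genes of Toll and IMD signalling, 7 rose and 3 fell, with 4 rising without CTRL replicate 1 or without DOM-A replicate 1. The receptor gene Tl had counts of 81.1, 66.6 and 167 in CTRL and 866, 955 and 835 after DOM-A RNAi, a 9-fold rise (log2 fold-change 3.17, standard error 0.338, adjusted p = 1.8e-05, edgeR). Next in the cascade, dl, which encodes the NF-kappaB factor Dorsal, rose 3.77-fold, from 263, 246 and 419.7 to 1232, 1117 and 1115. Its inhibitor gene cact rose 2.46-fold, from 2024, 1710.1 and 3094 to 5794, 4139.7 and 6543. Spn27A, the gene of a serpin that inhibits Toll activation and melanization, rose 7.02-fold (log2 fold-change 2.81, standard error 0.177, adjusted p = 7.17e-07, edgeR). The protease gene grass, upstream of Toll, fell, from 1339.8, 1748 and 864 to 434, 300 and 321 (log2 fold-change −1.85). None of these genes overlapped between the groups.

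Cytokines of the JAK-STAT pathway, which blood cells release upon injury and infection, varied between replicates. The normalized counts of upd3 were 229.9, 274 and 776 in CTRL and 2248, 563 and 4259.7 after DOM-A RNAi, a rise by 2.38 on the log2 scale (standard error 0.393, adjusted p = 0.000481, edgeR). DOM-A replicate 2 lay below CTRL replicate 3. The related upd2 rose from 13.5, 19.3 and 52.3 to 301, 64.4 and 987 and lost its call without CTRL replicate 1 (adjusted p = 0.0102) or CTRL replicate 3 (adjusted p = 0.0137). The receptor gene dome fell, from 782, 675 and 746 to 367, 497 and 311, and lost its call without CTRL replicate 1 (adjusted p = 0.0118) or DOM-A replicate 1 (adjusted p = 0.0103). Thioester proteins coat microbes, and their genes Tep2 and Tep4 rose 2.13-fold and 3.29-fold. In the list of 17 tested JAK-STAT, thioester and Turandot genes, 5 rose (29.4%) and 3 fell (17.6%). The stress gene TotA was at 0, 0 and 1.87 in CTRL and 6.5, 11.5 and 20.5 after DOM-A RNAi.

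Part of the basement membrane genes rose, some to high counts. Of 22 tested matrix genes 8 rose and 0 fell, with a median log2 fold-change of 0.89, and 4 rose without CTRL replicate 3. Collagen IV, the network protein of basement membranes, is encoded by Col4a1 and vkg. The gene vkg had counts of 2222, 2952 and 1630.1 in CTRL and 15772, 17199 and 9596 after DOM-A RNAi, a 6.21-fold rise (standard error of the log2 fold-change 0.465, adjusted p = 0.000785, edgeR). Col4a1 rose from 3561, 4378 and 2505 to 26713, 22925 and 15613, with a log2 fold-change of 2.63 (adjusted p = 0.00179, edgeR), and lost its call without CTRL replicate 1 (adjusted p = 0.0152) or CTRL replicate 3 (adjusted p = 0.0111). Both collagen genes lay apart between the groups in every library. Ppn, the gene of the matrix proteoglycan papilin, rose 4.1-fold, from 921, 640.2 and 448 to 4726, 1286 and 2999.6. The glypican genes dally and dlp, whose heparan sulfate proteins bind secreted signals, rose 4-fold and 2.93-fold.

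Among 30 tested genes of integrins and adhesion 11 rose and 1 fell, with a median of 0.46, which was 0.02 without DOM-A replicate 2. The count of rising genes depended on single libraries and was 4 without CTRL replicate 1, 5 without CTRL replicate 2, CTRL replicate 3 or DOM-A replicate 2, and 7 without DOM-A replicate 1. Nrg, the gene of the septate junction protein neuroglian, rose 5.59-fold, from 330.2, 362 and 449.6 to 2145, 1943 and 2271 (log2 fold-change 2.48, standard error 0.372, adjusted p = 0.000231, edgeR). Fas3, another septate junction gene, went from 4.51, 3.22 and 2.8 to 22.8, 69.2 and 31.7. The adherens junction gene alpha-Cat rose 1.85-fold, from 2489, 2444 and 2441 to 4780, 4895 and 3963. These 3 genes kept their calls when any 1 library was left out and did not overlap between the groups.

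In the lists of signalling pathways most members were not called. Of 22 tested genes of the BMP and activin pathways 6 rose (27.3%) and 2 fell (9.09%), against 8.96% and 10.4% over all genes tested. The BMP ligand gene dpp was at 0, 1.074 and 19.6 in CTRL and 78, 23.1 and 171 after DOM-A RNAi (log2 fold-change 3.96, standard error 0.494, adjusted p = 6.01e-05, edgeR). CTRL replicate 3 was close to DOM-A replicate 2, the lowest DOM-A library. The protease gene tok, whose product releases BMP ligands from an inhibitor, rose from 22.5, 18.3 and 17.8 to 139.8, 167 and 116, and Dad, a target gene and inhibitor of the pathway, rose 1.79-fold. The gene of the co-SMAD Med had a log2 fold-change of −0.65 and lost its call without CTRL replicate 1 (adjusted p = 0.0155). Of 37 genes of the EGFR, FGFR, PVR and Ras pathways 7 rose (18.9%) and 4 fell (10.8%), the latter near the share over all genes. The 4 became 0 without CTRL replicate 1 or DOM-A replicate 3 and 1 without CTRL replicate 2, CTRL replicate 3 or DOM-A replicate 1. The FGF ligand genes bnl and pyr rose 2.49-fold and 2.78-fold. The gene rho, whose protease releases EGF ligands, rose from 209.6, 301 and 381 to 1282, 879 and 2609.8.

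Of 26 tested Notch pathway genes 6 rose and 1 fell, with 3 rising without CTRL replicate 3. Notch target genes E(spl)m3-HLH and E(spl)mbeta-HLH, which encode repressors, rose by 2.02 and 1.52 on the log2 scale. Replicate 2 was the highest DOM-A library of both, at 335, 829 and 417 for E(spl)mbeta-HLH against 164, 257 and 117 in CTRL. Of 32 genes of the Wnt and Hedgehog pathways 4 rose (12.5%) and 1 fell (3.12%), against 8.96% and 10.4% over all genes tested. Without any 1 library other than DOM-A replicate 3, 1 or 2 rose. The Hedgehog effector gene ci rose from 33.8, 65.5 and 57 to 179, 640.3 and 179, again with replicate 2 the highest. The Hedgehog receptor gene ptc fell, from 329, 286 and 424 to 45.5, 153 and 61.6, and lost its call without CTRL replicate 1 (adjusted p = 0.0178), CTRL replicate 3 (adjusted p = 0.0155), DOM-A replicate 1 (adjusted p = 0.0238) or DOM-A replicate 3 (adjusted p = 0.0246).

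Genes that start cell death were among those that rose. Apoptosis in flies starts when hid, rpr and related genes are transcribed and their products block the caspase inhibitor Diap1. Of 22 tested apoptosis genes 4 rose and 0 fell, with a median log2 fold-change of 0.41, or 0.13 with bounds for genes without CTRL reads. The counts of hid (FBgn0003997) were 38.3, 51.6 and 58 in CTRL and 284, 521 and 386 after DOM-A RNAi, an 8.15-fold rise (log2 fold-change 3.03, standard error 0.293, adjusted p = 8.31e-06, edgeR). The counts of rpr were 11.3, 11.8 and 26.2 in CTRL and 146, 53.8 and 252 after DOM-A RNAi, with a log2 fold-change of 3.13. The TNF ligand gene egr, which acts through the JNK pathway, rose 4.34-fold, from 126, 119 and 197 to 494, 779.7 and 525. Each of these 3 genes lay apart between the groups. The gene p53, an activator of hid and rpr after DNA damage, had counts of 1514, 1840.1 and 2265 and 6029.9, 2114 and 11750.4, with DOM-A replicate 2 within the CTRL range. Its log2 fold-change was 1.61 (adjusted p = 0.00472, edgeR), and its call was lost without CTRL replicate 1 (adjusted p = 0.0299), CTRL replicate 3 (adjusted p = 0.0345), DOM-A replicate 1 (adjusted p = 0.0276) or DOM-A replicate 3 (adjusted p = 0.0249).

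The growth regulator gene Myc rose 3.7-fold, from 4456, 3524 and 5856 in CTRL to 20367, 12111 and 18160.1 after DOM-A RNAi (log2 fold-change 1.89, standard error 0.201, adjusted p = 1.76e-05, edgeR). Of 29 tested genes of Myc and nucleolar growth, 2 rose and 1 fell. The TOR inhibitor genes scyl and chrb rose 2.31-fold and 2.56-fold, with counts of scyl at 4431, 4215 and 4880 in CTRL and 11216, 9186 and 10753 after DOM-A RNAi. They belong to the tested hypoxia list of 10 genes, in which bnl rose too and Ldh fell, while the hypoxia factor gene sima had a log2 fold-change of −0.52 (adjusted p = 0.0214, edgeR).

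Ecdysone is the steroid hormone of moulting. Of 23 tested genes of the ecdysone response 7 rose, 0 fell and 16 were not called, with a median of 0.64, and 3 rose without CTRL replicate 1, 2 or 3 or without DOM-A replicate 1. Eip63F-1, which encodes a calcium-binding protein, had counts of 2.25, 1.074 and 0.935 in CTRL and 63.4, 18.3 and 49.4 after DOM-A RNAi. The nuclear receptor gene Eip78C rose 2.17-fold, from 331, 350.2 and 335 to 808, 697 and 708 (log2 fold-change 1.12, standard error 0.175, adjusted p = 0.00032, edgeR). The ecdysone importer gene Oatp74D rose by 1.33 on the log2 scale and was not called in 5 of the 6 fits that left out 1 library. The ecdysone receptor gene EcR had counts of 696, 580.1 and 779 and 694, 1093 and 514, which overlapped (log2 fold-change 0.17, adjusted p = 0.705).

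Other genes named for the size of their change lie outside these pathways. The receptor gene mthl2, of the Methuselah family, had counts of 4.51, 0 and 4.67 in CTRL and 922, 238 and 394 after DOM-A RNAi. Its relative mthl6 had 0 reads in CTRL and counts of 69.9, 19.2 and 50.4, at least 14.8-fold higher, whereas mthl7 fell from 114, 204 and 80.4 to 17.9, 29.8 and 13.1. Of the 14 tested members of this receptor family 3 rose and 2 fell. The neuropeptide-like gene Nplp2 rose 40.8-fold, from 159, 280.4 and 216 to 13323, 5701 and 9158 (standard error of the log2 fold-change 0.447, adjusted p = 3.28e-06, edgeR). CG33460 rose 87.7-fold, from 10.1, 18.3 and 26.2 to 1874, 1803 and 1281, and lies on chromosome 2R with CG33461 and CG33462, a run of 3 neighbouring genes called higher between 15694092 and 15698010. The synaptotagmin gene Sytalpha rose 43.5-fold, from 9.02, 7.52 and 13.1 to 286, 486 and 393. Ance-5, a gene of the angiotensin-converting enzyme family, rose from 2.25, 6.45 and 3.74 to 397, 28.8 and 237, with replicate 2 far below the other DOM-A libraries. In fon, which encodes a clotting protein, replicate 2 was the highest, at 110.5, 670.1 and 119 for DOM-A replicates 1 to 3 against 1.13, 11.8 and 6.54 in CTRL. The gene osy, which encodes a lipid transporter, had counts of 14.6, 938 and 63.4 after DOM-A RNAi and 1.13, 0 and 3.74 in CTRL, so that its log2 fold-change of 6.87 rests on replicate 2, and it lost its call without CTRL replicate 2 (adjusted p = 0.0199).

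Such differences of DOM-A replicate 2 occurred in both directions. Among the 1024 genes called higher, its log2 difference from CTRL was more than 2-fold further than that of the other replicates in 67 genes and more than 2-fold nearer in 120. For replicate 1 these counts were 63 and 15, and for replicate 3 they were 20 and 54.

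Among the genes with the largest decreases, the metallothionein gene MtnA (FBgn0002868), whose product binds copper and zinc, had counts of 4129.9, 7382 and 812 in CTRL and 115, 131 and 44.8 after DOM-A RNAi. CTRL replicate 3 was far below the other CTRL libraries, and still the highest DOM-A library was below it (log2 fold-change −5.14, standard error 0.447, adjusted p = 3.69e-06, edgeR). CG7860 fell from 392, 349 and 272 to 14.6, 27.9 and 13.1. The meiotic cohesion gene sunn fell 8.38-fold, and ndl, which encodes a protease of the cascade upstream of Toll in the egg, fell 8.25-fold. Orcokinin, a neuropeptide gene, fell from 343, 516 and 326 to 50.4, 71.1 and 45.7.

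Glycolysis converts glucose to pyruvate in a chain of enzymes, and lactate dehydrogenase regenerates its cofactor. Of 15 tested genes of this pathway 10 fell and 0 rose, with a median log2 fold-change of −1.09, and 8 or 9 fell when 1 library was left out. In the order of the pathway, Pgi fell 2.63-fold, Ald1 1.98-fold, Tpi 6.93-fold, Gapdh1 2.54-fold, Pgk 2.23-fold, Pglym78 2.81-fold and Eno 2.13-fold. Tpi (FBgn0086355), the triosephosphate isomerase gene, had counts of 3188, 3794 and 2579.7 in CTRL and 544, 586 and 298 after DOM-A RNAi (log2 fold-change −2.79, standard error 0.142, adjusted p = 1.66e-07, edgeR). Lactate dehydrogenase, encoded by Ldh, fell from 28783, 31567 and 21444 to 14051, 7701 and 4290.5, a 3.38-fold decrease in which replicate 3 was the lowest and replicate 1 the highest DOM-A library. No glycolytic gene that was called overlapped between the groups. Pfk, which encodes the committing enzyme phosphofructokinase, had counts of 2898, 1454 and 2572 and 1326, 1334 and 559, and was not called in 4 of the 6 fits that left out 1 library. Gapdh2 was called in none of those 6 fits. Neither PyK, with a log2 fold-change of −0.43 (adjusted p = 0.0436), nor Hex-A, with 0.07 (adjusted p = 0.721), passed the test, and these encode pyruvate kinase and hexokinase at the end and the entrance of the chain. The remaining Hex-t1, Hex-t2 and Ald2 had mean counts under 2 in both groups.

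Part of the genes for storage and side branches of the same sugars fell. Of 14 genes of trehalose, glycogen and gluconeogenesis 6 fell, 0 rose and 8 were not called. Pgm1, whose phosphoglucomutase links glycogen to glycolysis, fell 6.13-fold, from 4569, 4919 and 2384 to 725, 703 and 446 (log2 fold-change −2.62, standard error 0.209, adjusted p = 2.34e-06, edgeR). The glycogen branching enzyme gene AGBE fell 2.87-fold, the glycogen primer gene Gyg 2.03-fold and the glycogen phosphorylase gene Glyp 2.11-fold. Synthesis and breakdown of glycogen were both among the genes that fell. Pepck2, a gene for the entry into gluconeogenesis, went from 143, 213 and 192 to 27.6, 38.5 and 24.2. The pentose phosphate pathway makes ribose and reducing power, and 4 of its 7 genes fell and 0 rose. These were CG8036, annotated as a transketolase, Rpi, Rpe and Taldo, at 2.25-fold, 2.06-fold, 2.06-fold and 2.05-fold lower, and all 4 remained called when any 1 library was left out.

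Mitochondrial energy genes fell in part, with list medians nearer to 0 than that of glycolysis. Of 26 citric acid cycle genes 12 fell and 1 rose, with a median of −0.48, and Mdh2, the mitochondrial malate dehydrogenase gene, fell 2.6-fold, from 2747, 2841 and 2257 to 939, 1022 and 1038. The cytosolic enzyme gene Mdh1 fell 1.92-fold and SdhA, of succinate dehydrogenase, 1.84-fold. Among nuclear genes of the respiratory chain, 13 of 36 for complex I fell and 0 rose, 15 of 28 for complexes III and IV fell and 1 rose, and 9 of 15 for the ATP synthase fell and 0 rose. Leaving out a library lowered these counts to 7 for complex I and 9 for complexes III and IV without CTRL replicate 2, and to 8 for complex I without DOM-A replicate 3. For the ATP synthase 5 fell without CTRL replicate 2 and 4 without DOM-A replicate 1. UQCR-C1, a core subunit gene of complex III, had counts of 5895, 6034 and 4755 in CTRL and 2087, 1981 and 1749.8 after DOM-A RNAi, a 2.86-fold decrease (log2 fold-change −1.51, standard error 0.119, adjusted p = 2.13e-06, edgeR). ATPsynCF6 and the complex I gene ND-15 fell 1.97-fold and 2.101-fold.

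The lists above leave out the genes of the mitochondrial genome, which were looked up after the nuclear values were seen. Of its 13 protein-coding genes 4 were called higher, all for complex I subunits, and 0 lower in edgeR's test, while 1 was lower at an unadjusted p under 0.05 and DESeq2 called mt:CoI lower. These 4 were mt:ND1, mt:ND4, mt:ND4L and mt:ND5, the protein-coding genes on the minus strand of this genome, at log2 fold-changes of 1.32, 1.17, 1.36 and 0.99. Normalized counts of mt:ND4 were 3642, 2910 and 6874 in CTRL and 9862, 7215 and 11537 after DOM-A RNAi, with DOM-A replicate 2 just above CTRL replicate 3 (standard error 0.188, adjusted p = 0.000388, edgeR). Calls of mt:ND1 and mt:ND4 held when any 1 library was left out, mt:ND5 was called in 4 of those 6 fits and mt:ND4L in 2. On the plus strand, mt:CoI, for the catalytic subunit of complex IV, had a log2 fold-change of −0.61 (adjusted p = 0.018, edgeR).

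Proton pumps of lysosomes and other acidic compartments were affected as well. Of 27 tested V-ATPase genes 12 fell and 1 rose, with a median of −0.38, or −0.69 without DOM-A replicate 2, and between 9 and 12 lower when 1 library was left out. Vha13 fell 2.65-fold, from 1903, 1949 and 1579 to 733, 665 and 639.8. The exception was Vha36-2, with 0 reads in CTRL and counts of 34.1, 17.3 and 22.4 after DOM-A RNAi, at least 7.85-fold higher.

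**Figure D4:**
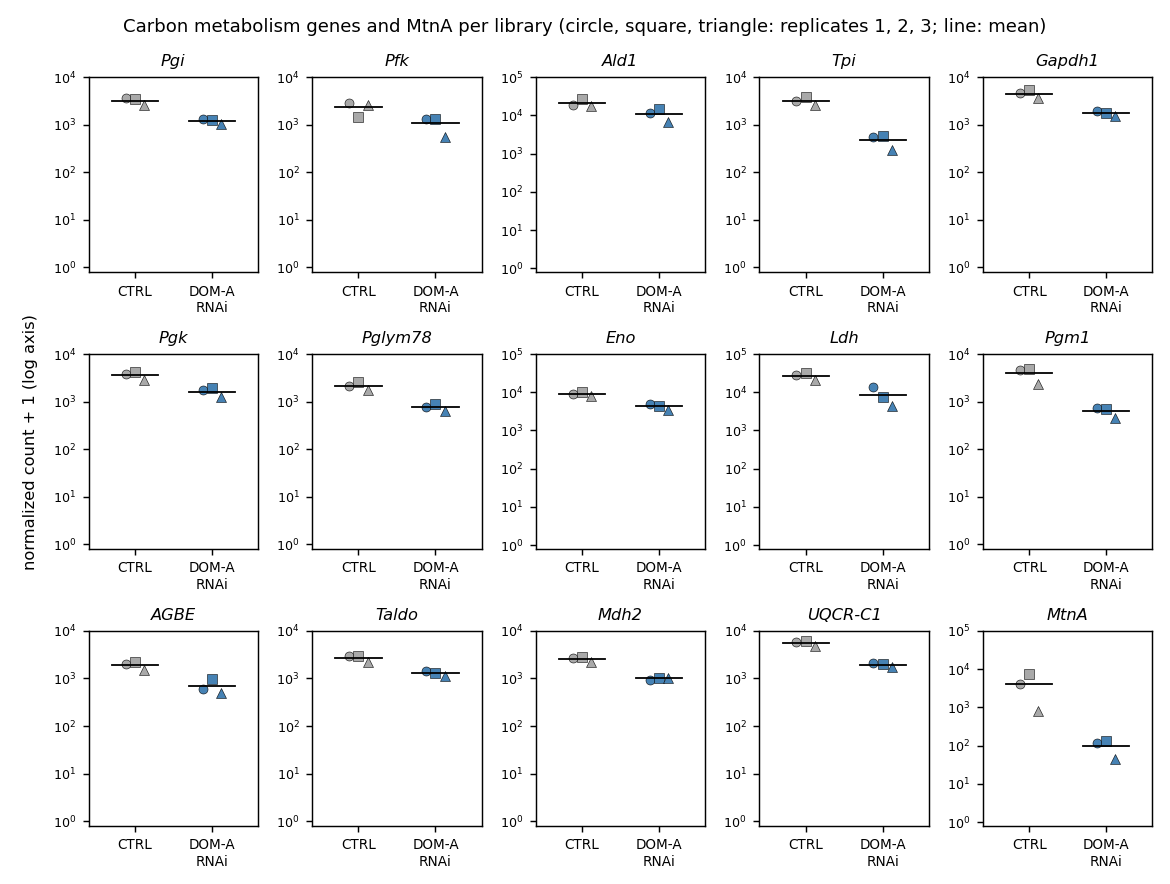
Normalized count plus 1 (vertical log axis) of genes of carbon metabolism and respiration and of MtnA in CTRL (grey) and after DOM-A RNAi (blue), each symbol a library (circle, square and triangle for replicates 1, 2 and 3) and each line a group mean. The DOM-A libraries lie below the CTRL libraries in every gene shown, and the decrease of MtnA from a mean of 4108 to 97.0 is the largest.

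Genes of metal handling were called in both directions. Ferritin, the iron storage protein, is encoded by Fer1HCH and Fer2LCH. Fer1HCH fell from 16448, 21676 and 8702 to 5164, 4832 and 4232 and Fer2LCH from 13265, 24408 and 7900 to 4086, 5429.9 and 3969, 2.96-fold and 3-fold. MTF-1, which encodes the metal-responsive activator of metallothionein genes, fell 1.48-fold (log2 fold-change −0.56, standard error 0.106, adjusted p = 0.00125, edgeR). Among zinc transporter genes, foi rose by 1.10 and ZnT41F by 1.26 on the log2 scale. Of the 5 tested ZnT genes 3 rose, of which ZnT63C and ZnT77C were not called in 5 and 4 of the 6 fits that left out 1 library, and of the 6 tested Zip genes 1 rose. In all, 6 of 32 genes for metallothioneins and metal handling rose and 6 fell, and 2 or 3 rose without CTRL replicate 1, 2 or 3 or DOM-A replicate 1. The metallothionein genes MtnD, MtnE and MtnF had log2 fold-changes of 1.50 (adjusted p = 0.258), −0.03 (adjusted p = 0.993) and 0.23 (adjusted p = 0.899).

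Glutathione S-transferases, which detoxify reactive compounds, were called in both directions, with 5 of 34 tested genes higher and 9 lower. The 5 became 2 or 3 without CTRL replicate 1, 2 or 3 or DOM-A replicate 1. The 2 largest subfamilies held a part of these calls. Of 14 tested GstE genes 5 fell, and of 11 GstD genes 3 rose, and neither subfamily had a gene called in the other direction. GstE9 fell 7.38-fold, from 614, 732 and 536 to 89.4, 97.1 and 70 (log2 fold-change −2.88, standard error 0.263, adjusted p = 5.41e-06, edgeR), and GstE6 and GstE11 fell 3.03-fold and 2.96-fold. GstD7 rose from 94.7, 124 and 176 to 447, 265 and 608 without overlap. The other called GstD genes, GstD8 and GstD11, had CTRL counts of at most 3.7 and were not called in 5 and 4 of the 6 fits that left out 1 library. Near-identical members of these families can share reads that were discarded as mapping to several places, so values of single Gst genes are uncertain.

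In the translation machinery the cytosolic and the mitochondrial ribosome went opposite ways, by small amounts. Of 88 tested genes of cytosolic ribosomal proteins 16 rose and 1 fell, with a median of 0.29, and of 73 genes of mitochondrial ribosomal proteins 0 rose and 25 fell, with a median of −0.41. Both counts rest on single libraries. The 16 became 0 without CTRL replicate 1, CTRL replicate 3 or DOM-A replicate 1, 2 without DOM-A replicate 3 and 7 without CTRL replicate 2, and the 25 became between 10 and 16 without any 1 library. RpS6 had counts of 38238, 40180.3 and 30990.5 in CTRL and 59258, 57593 and 47399 after DOM-A RNAi (log2 fold-change 0.59, standard error 0.128, adjusted p = 0.00323, edgeR), which did not overlap, and lost its call in 4 of the 6 fits that left out 1 library. Germline paralogue RpS19b was the one that fell, 2.77-fold. The mitochondrial mRpL23 fell 2.04-fold, from 486, 614 and 478 to 223, 298 and 248. Of 46 tested genes of translation initiation and elongation 11 fell and 4 rose, and the 4 became 0 without CTRL replicate 1, 2 or 3 and 2 without any 1 DOM-A library. Initiation factor genes eIF2A, eIF3m and eIF3c fell 2.47-fold, 2.14-fold and 1.85-fold. Of 33 genes for aminoacyl-tRNA synthetases, which load amino acids onto tRNA, 11 fell and 0 rose, with 5 lower without CTRL replicate 1, 4 without CTRL replicate 3 and 7 without DOM-A replicate 1 or 3. GlyRS fell 2.02-fold, from 3420, 3212 and 3017 to 1785, 1484 and 1513.

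Part of the genes of division and chromosome structure fell. Of 61 tested cell cycle genes 16 fell and 2 rose, with a median of −0.39. The 16 became 6 without CTRL replicate 1, 10 without CTRL replicate 3 and 5 without DOM-A replicate 1 or 3. Incenp, of the complex that corrects chromosome attachment, fell 2.52-fold, from 2427, 2206 and 1818 to 783, 1073 and 705 (log2 fold-change −1.33, standard error 0.189, adjusted p = 0.000143, edgeR). The major tubulin genes alphaTub84B and betaTub56D, abundant in all libraries, fell 2.05-fold and 2.04-fold, with alphaTub84B at 33032, 30918 and 24352 in CTRL and 15379, 15662 and 11922 after DOM-A RNAi. The mismatch repair gene Msh6 fell 2.67-fold, and PolD2, of the replicative DNA polymerase delta, fell 2.22-fold. Of 44 tested genes of DNA damage and repair 8 fell (18.2%) and 4 rose (9.09%), against 10.4% and 8.96% over all genes tested. The 4 became 0 without CTRL replicate 3 and 1 without CTRL replicate 1, DOM-A replicate 1 or DOM-A replicate 3. The 8 became 4 without CTRL replicate 2 and 5 without CTRL replicate 1, CTRL replicate 3 or DOM-A replicate 1. Of 44 genes of DNA replication 9 fell and 1 rose. The 9 became 3 or 4 without CTRL replicate 1, 2 or 3 and 1 without DOM-A replicate 1 or 3.

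Calls among chromatin regulators differed in number between lists. Of 28 tested SNF2-type remodeler genes 10 fell and 0 rose, among them brm (2.097-fold), Chd1 (2.07-fold) and Iswi (1.78-fold), and 5 or 6 fell without CTRL replicate 1, DOM-A replicate 1 or DOM-A replicate 3. The counts of brm were 3988, 3444 and 3156 in CTRL and 1684, 1823 and 1518 after DOM-A RNAi. Among 30 tested histone acetyltransferase and deacetylase genes 2 rose and 2 fell. Of 37 tested Polycomb and trithorax group genes 9 fell and 0 rose. At an unadjusted p under 0.05 in edgeR's test, 6 of them were higher. The 9 became 2 or 3 without CTRL replicate 1 or 3 or DOM-A replicate 1 or 3. The trithorax group gene ash2 fell 2.16-fold. Among histone genes, His4r fell 2.63-fold and the replacement histone gene His3.3A 2.32-fold, whereas abo, which encodes a repressor of histone genes, rose 2.38-fold. Of the 20 genes of the subunits and partners of DOM complexes 0 were called, with a median of −0.06. At an unadjusted p under 0.05, 3 of them were higher and 2 lower in edgeR's test, and DESeq2 called Xbp1 lower. The furthest from 0 were Nipped-A, at 0.43 (adjusted p = 0.105), and Xbp1, at −0.41 (adjusted p = 0.028), and Tip60 was at 0.30 (adjusted p = 0.133).

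The genes that rose were longer than the rest. Among protein-coding genes the median distance between gene start and end was 5842 bp for those that rose, 2588 bp for those that fell and 2656 bp for all tested. In the longest quintile 20.1% of 2021 genes rose and 7.13% fell, against 4.6% and 11.3% in the shortest quintile. With CTRL counts of 100 or more, 20.7% of the longest and 3.27% of the shortest quintile rose. The 407 rising genes of the longest quintile became 228, 255 and 251 without CTRL replicate 1, 2 or 3, and 260 without DOM-A replicate 1. Its 144 falling genes became 70, 94, 85 and 77 without CTRL replicate 1, CTRL replicate 3, DOM-A replicate 1 and DOM-A replicate 3. In the shortest quintile the 93 rising genes became between 43 and 59 without CTRL replicate 1, 2 or 3 or DOM-A replicate 1, and the 229 falling genes 123, 139 and 147 without CTRL replicate 2, DOM-A replicate 1 and DOM-A replicate 3. Reads that fell on no annotated gene made up between 3.22% and 3.78% of reads in CTRL and between 3.39% and 5.47% after DOM-A RNAi, and their part in the result was not tested. Chromosome 4, a small and largely heterochromatic chromosome, had 20 of 93 genes higher and 1 lower. Its 20 became 6, 9 and 5 without CTRL replicate 1, 2 or 3, 9 without DOM-A replicate 1 and 11 without DOM-A replicate 2.

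**Figure D5:**
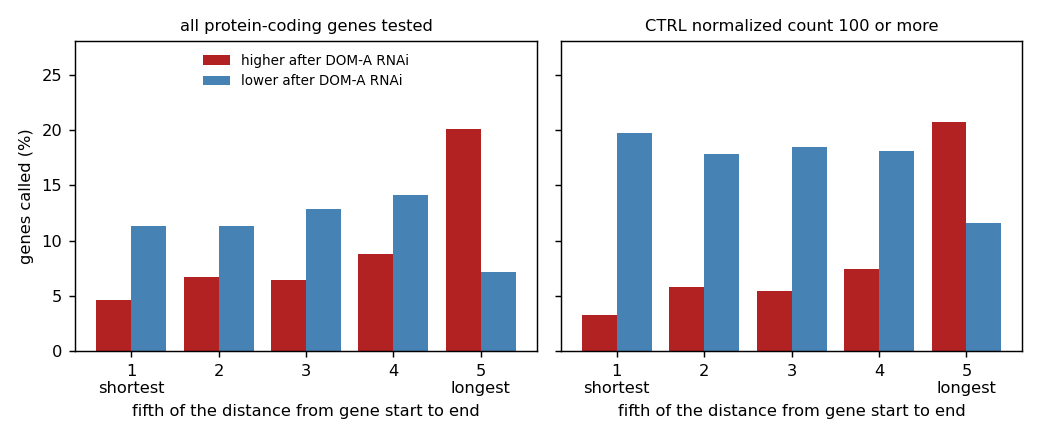
Percentage of protein-coding genes called higher (red) or lower (blue) after DOM-A RNAi in each quintile of the distance from gene start to gene end, for all genes tested (left) and for genes with a CTRL normalized count of at least 100 (right). The longest quintile has the highest share of rising genes, 20.1% and 20.7%, and the lowest share of falling genes, 7.13% and 11.6%.

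Set against TIP60 RNAi, tested directly, 2 genes (0.0175%) differed in edgeR's test, both higher after DOM-A RNAi. These were Tip60 itself, with a log2 difference of 2.95 (standard error 0.168, adjusted p = 7.58e-07), and CG14196, with 3.18 (standard error 0.402, adjusted p = 0.0094). At an unadjusted p under 0.05, 1491 genes differed, and DESeq2 called 58. Both knock-downs were compared with the same CTRL libraries, and their own values are given side by side. Log2 fold-changes against CTRL after TIP60 RNAi were 1.22 for Hml, 6.15 for PPO2, 1.99 for vkg, 1.25 for hid, −2.27 for Tpi and −2.85 for MtnA. After DOM-A RNAi they were 1.75, 7.43, 2.63, 3.03, −2.79 and −5.14. A difference that missed the threshold does not show that the responses were equal.

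Against DOM-B RNAi, the direct edgeR test found 832 genes (7.28%) with more and 1158 (10.1%) with less RNA in DOM-A cells. Of 35 blood cell genes 12 were higher than after DOM-B RNAi, of 22 basement membrane genes 4 were higher and of 22 apoptosis genes 2. Among 17 genes of the JAK-STAT pathway, thioester proteins and Turandot proteins 0 were higher and 1 lower than after DOM-B RNAi. Of 15 glycolytic genes 6 were lower, of 28 genes of complexes III and IV 12 were lower, and of 15 ATP synthase genes 10 were lower. Cytosolic ribosomal protein genes differed more between the isoforms than from CTRL, with 46 of 88 higher and 1 lower than after DOM-B RNAi, and 30 of 73 mitochondrial ones were lower. For Hml the log2 difference between DOM-A and DOM-B RNAi was 0.60 (adjusted p = 0.0948, edgeR), for vkg 1.64 (adjusted p = 0.0139), for Tpi −2.19 (adjusted p = 4.67e-07) and for hid 1.60 (adjusted p = 0.000638). Against CTRL, DOM-B RNAi gave log2 fold-changes of 1.16 for Hml, 0.99 for vkg, −0.60 for Tpi and 1.43 for hid.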

How the data were processed

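The authors mapped 50 nt reads from poly(A)-selected, directional libraries with STAR 2.5.3a to both fly genomes, kept reads with 1 position and deposited read counts per gene, without normalization. Here, the counts were those of the strand that held most reads. Genes with at least 1 read in 6 libraries were kept (11424 D. melanogaster and 8941 D. virilis genes). Library sizes were set by size factors that the median-of-ratios method gave for D. virilis genes. edgeR 4.0.16 (R 4.3.3) fitted all 15 libraries with group and replicate number as factors, and the quasi-likelihood test was adjusted by Benjamini-Hochberg, with a threshold of 0.01. Symbols and positions come from a BDGP6 annotation newer than the one used for counting. In simulated data of 11162 genes, the test of DOM-A against CTRL recovered 82% of 2-fold and 99% of 4-fold changes. Only 100 genes of each size were changed, none of them with few CTRL reads. The simulated spread depended on the count level alone and held no replicate differences. The shares therefore do not apply to genes with few reads or to genes that varied between replicates.

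The comparison, the gene lists and the naming rule were chosen with earlier results of these data known. The rule takes the 12 largest called changes in each direction with a mean count of at least 100, up to 4 members per direction of each list or symbol family with a mean count of at least 20, both with the same direction in all 3 replicates, and every tested member of 6 lists. Other members are given to account for their list. Alternatives were other scalings, filters, DESeq2 1.42.0, fits without the replicate block, with the 6 libraries alone, or without 1 library. Replicates differed by more than counting error, so the errors of the fit are given. Sequences of promoters or proteins were not analysed here.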

Additional observations from a re-analysis of the deposited data

How the results depend on the processing

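None of the 206 called genes followed through the alternatives changed its direction. The naming rule took mainly large changes with the same direction in all 3 replicates, so a reversal could hardly occur. Of the 70 list medians, 10 had the other sign with at least 10 reads in each library. Among these were 3 whose median was further than 0.25 from 0 before. The 1024 higher genes became 614 without the replicate block and 1771 at an adjusted p under 0.05, and between 525 and 908 when 1 library was left out. The 1190 lower genes became 1903 at an adjusted p under 0.05 and between 694 and 1100 when 1 library was left out. Over all genes the median change of 0.03 on the log2 scale was −0.055 with total D. virilis counts, −0.08 with at least 10 reads in each library, and between −0.02 and 0.06 when 1 library was left out. Of the genes called, between 37.3% (total D. virilis counts) and 53.8% (size factors of the D. melanogaster counts) were higher under the other scalings. Between DOM-A and TIP60 RNAi, 2 genes differed, 4 without a filter or at an adjusted p under 0.05, 1 with at least 10 reads in each library or without the replicate block, and 58 with DESeq2. Between DOM-A and DOM-B RNAi the 1990 genes became 1263 without the replicate block and 3480 at an adjusted p under 0.05. Those comparisons could not be fitted with the 6 libraries alone.

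The replicate block follows the study's methods. Deviations from the group means of DOM-A and CTRL libraries with the same number correlated across genes at 0.0707, 0.208 and 0.329, so the numbers do not by themselves pair the samples. Without the block, the counts fell from 10 to 6 for lower glycolytic genes, from 6 to 3 for lower genes of trehalose, glycogen and gluconeogenesis, from 16 to 1 for higher cytosolic ribosomal protein genes and from 4 to 0 for higher digestive enzyme genes, and mt:ND1, mt:ND4, mt:ND4L and mt:ND5 were not called (adjusted p between 0.0391 and 0.103). Of the 206 genes, 158 stayed called without the replicate block and between 155 and 184 when 1 library was left out. Of 155 with at least 10 reads in each library 153 stayed called. With 3 libraries per group, small changes of genes with few reads were not detectable at this depth.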

Other observations

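Further groups had members called in both or in one direction, against 8.96% higher and 10.4% lower over all genes tested. Of 40 tested neuronal and neuropeptide genes 6 rose and 2 fell. The acetylcholine receptor gene nAChRalpha1 rose 3.49-fold, from 408, 693 and 553 in CTRL to 2284, 1542 and 1899 after DOM-A RNAi, and Dh44, which encodes a diuretic hormone, went from 11.3, 6.45 and 11.2 to 74.8, 81.7 and 70. The neuronal RNA-binding gene elav fell, from 388, 233 and 309 to 78, 108 and 99.8. Of 53 ion channel genes 9 rose and 3 fell, with 5 rising without CTRL replicate 1 or 2, and 0 or 1 falling without any 1 library other than DOM-A replicate 2. The potassium channel gene KCNQ rose by 3.47 on the log2 scale (standard error 0.472, adjusted p = 0.000109, edgeR). Among 35 genes of the germline and its small RNAs 9 fell and 4 rose, with 2 rising without CTRL replicate 1 or 3, and bam, which starts germ cell differentiation, fell from 446, 456 and 421 to 128, 118 and 198. Of 43 homeobox and patterning genes 3 rose (6.98%) and 0 fell, with 1 rising without CTRL replicate 2, and the homeobox gene scro went from 9.02, 1.074 and 4.67 to 42.3, 102 and 30.8. Of 16 digestive enzyme genes 4 rose and 0 fell, and 1 rose without CTRL replicate 3 and 2 without CTRL replicate 1, CTRL replicate 2, DOM-A replicate 1 or DOM-A replicate 3. Of 68 cytochrome P450 genes 10 rose and 8 fell. The 10 became 5, 4 and 5 without CTRL replicate 1, 2 or 3, and the 8 became 5 without CTRL replicate 2 or 3 and 4 without DOM-A replicate 3. Cyp28d1 fell 5.4-fold, from 177, 249 and 259 to 34.1, 37.5 and 53.2.

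Among 537 long noncoding RNA genes 53 rose (9.87%) and 9 fell (1.68%), against 8.96% and 10.4% over all genes tested. Of all tested genes in the lowest and second lowest quintile of CTRL count, 0% and 1.93% fell. The noncoding genes were not matched to others by count. When 1 library was left out, between 23 and 54 rose, lowest without CTRL replicate 3, and between 3 and 8 fell, lowest without CTRL replicate 1. Neighbouring tested genes called in the same direction formed 28 runs of 3 or more higher genes, holding 91 genes, and 25 runs of lower genes, holding 81 genes. One of them, on chromosome 2L between 17591315 and 17875247, holds CG6870, Sytalpha, CadN and CadN2, all higher. CadN lost its call without CTRL replicate 1 or 3 or DOM-A replicate 1 or 2. CadN2 lost its call without CTRL replicate 1, 2 or 3 or DOM-A replicate 1 or 2. The peptidase-like gene Nepl9 rose 51.3-fold, from 5.63, 6.45 and 8.41 to 223, 829 and 169.8, with replicate 2 the highest.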
